A study of Mus musculus with 15 samples.

Results

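Respiratory complex I takes electrons from NADH, passes them along a chain of iron-sulfur clusters to ubiquinone, and pumps protons across the inner mitochondrial membrane. Its core subunits carry the chemistry, its many accessory subunits surround and stabilise the core, and assembly factors of the Ndufaf family help to build the complex without staying in it. Colonocytes of the large bowel are known to draw much of their energy from butyrate made by gut bacteria, whose oxidation in mitochondria feeds this chain. The genes examined here are the nuclear Nduf genes, found as rows of the cecal expression table whose symbol is Nduf followed by a letter, that do not end in -ps, and that reach 0.5 FPKM in at least 7 of 15 mice. FPKM counts the reads of a gene relative to its length and to the depth of the library. Of 45804 genes in the table, 45 matched the symbol, no row ended in -ps, and 44 reached the level. They comprise 7 nuclear core subunits, 29 accessory subunits, 7 assembly factors and Ndufa4, which is kept apart because it is known as a subunit of complex IV. Ndufa4l2, its paralog, had a mean of 0.0961 FPKM in AIMD and 0.0723 FPKM in vehicle-treated mice and was not a member, whereas the member with the lowest mean, Ndufaf6, had 6.65 and 8.45 FPKM. All 44 members reached 0.5 FPKM in every one of the 15 mice.

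The ceca came from C57BL/6 mice, labelled as wild type and 20 weeks old, with no transgene or deletion named. The study's text gives a starting age that, with the length of the gavage added, is younger than this label. Antibiotic-induced microbiome-depleted (AIMD) mice (n = 7) had received ampicillin, vancomycin, metronidazole and neomycin with the antifungal amphotericin B by oral gavage for 30 days, and vehicle-treated mice (n = 8) had received water. Each mouse gave 1 library of poly-A RNA from the whole emptied cecal wall, so that fewer cells of a type and less RNA per cell cannot be told apart in these values. Whole reads recovered from the FPKM gave between 8679684 and 18108594 reads per AIMD mouse and between 4372429 and 14405958 per vehicle-treated mouse. Epithelial markers summed to 4134 to 6636 FPKM in AIMD mice and to 3497 to 5384 FPKM in vehicle-treated mice. Of the marker genes tested, 3 of 3 for enteric neurons and glia and 1 of 6 for smooth muscle fell, 2 of 8 epithelial genes rose and 1 fell, 2 of 5 colonocyte genes fell, and 1 rose and 1 fell among 5 goblet and among 6 immune genes. The 5 fibroblast genes had 1 rise, the 3 red blood cell genes 1 fall, and the 3 endothelial genes no change that passed. The neuron and glia genes summed to 2.15 to 3.26 FPKM in AIMD mice and to 3.19 to 53.3 FPKM in vehicle-treated mice.

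Vehicle replicate 8 stood apart and bears on most values below. It was the least deep library, its smooth muscle markers summed to 3018 FPKM against 517 to 1373 in the other vehicle-treated mice and 213 to 813 in AIMD mice, and its neuron and glia markers reached 53.3 FPKM against at most 17.5 in the other vehicle-treated mice. It was the lowest vehicle-treated mouse for 38 of the 44 members. The part of depth and of muscle and nerve RNA in these values was not tested, and the main counts are given with and without this mouse.

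AIMD mice had lower RNA of a set of accessory subunits of complex I, and higher RNA of a pair of core subunits and a pair of assembly factors. In limma, with Benjamini–Hochberg adjustment over all 11983 genes tested and a threshold of 0.05, 10 of 29 accessory subunits (34.5%) fell and none rose, against a background of 16.7% of all genes lower and 19.4% higher. Of the 29, 25 had a negative log2 fold change, with a median of -0.46, against a median of 0.006 over all genes. Among the 7 core subunits 2 rose (Ndufs1 and Ndufv1, 28.6%) and none fell, with a median of 0.12. Among the 7 assembly factors 2 rose (Ndufaf4 and Ndufaf5, 28.6%) and none fell, also with a median of 0.12. A further assembly factor, Ndufaf8, is listed under an older symbol and so is not in these counts. It fell, with a log2 fold change of -0.57 (limma adjusted p = 0.0127). With it the assembly class would hold a fall and have a negative median. At an unadjusted p under 0.05 the fit held 17 accessory, 3 core and 2 assembly genes, 22 of the 44 members, against 45.9% of all genes. Over all 44 members 4 rose (9.1%, against 19.4% of all genes) and 10 fell (22.7%, against 16.7%). Together 14 passed the test, a share of 31.8% that is near the 36.1% of all genes. Whether the classes differ from each other in direction was not tested.

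**Figure D1:**
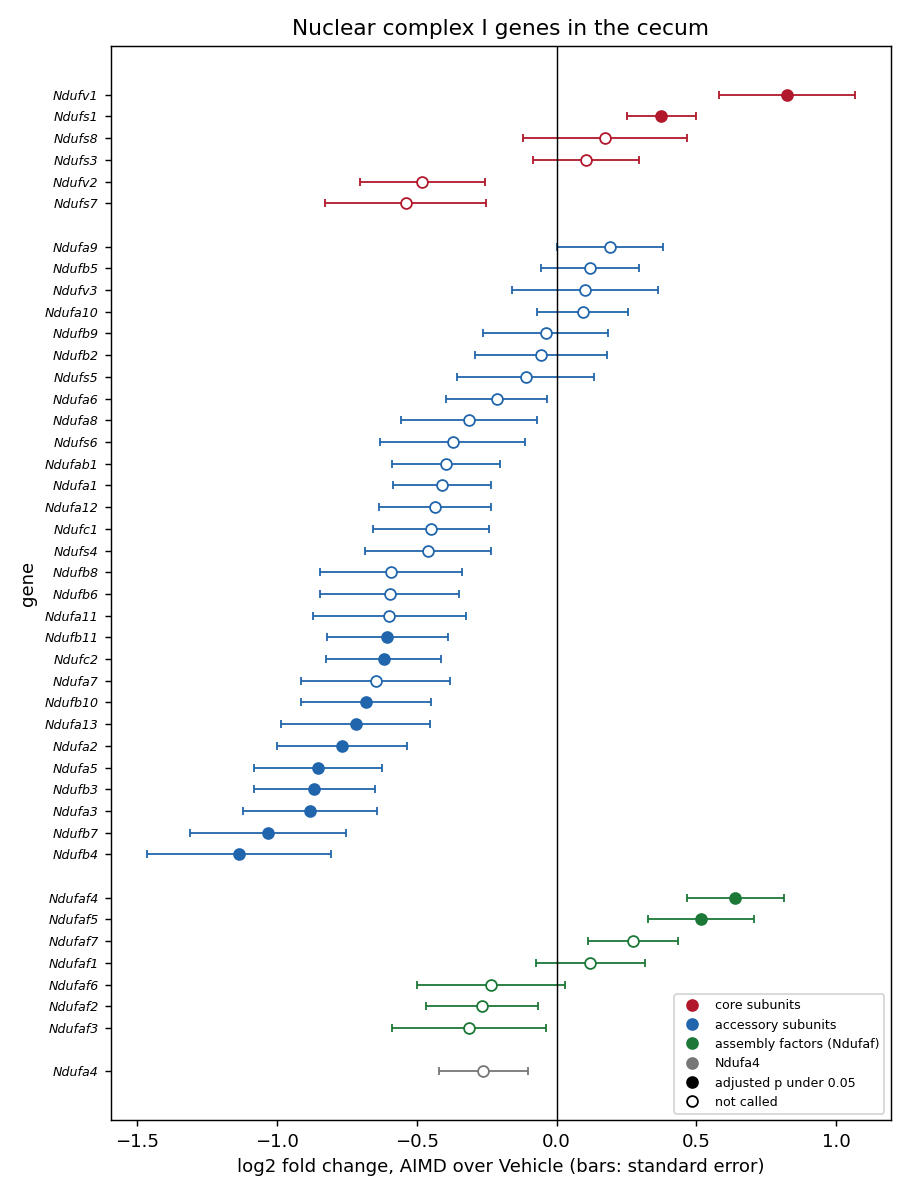
Log2 fold change of 43 of the genes, AIMD over Vehicle, with its standard error as bar; core subunits are red, accessory subunits blue, assembly factors green and Ndufa4 grey, and filled points passed an adjusted p of 0.05. The 10 filled blue points all lie below 0, between -1.14 and -0.61, and the filled red and green points lie between 0.37 and 0.82.

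These counts depended on single mice. Without vehicle replicate 8, 18 accessory subunits fell (background 18.6%), the median was -0.62, and 1 core subunit (Ndufv2) and 1 assembly factor (Ndufaf6) fell as well. The 2 core subunits and 2 assembly factors that rose also rose without it (background 20.3%). Without AIMD replicate 5, AIMD replicate 6 or vehicle replicate 1, 6 accessory subunits fell, where the background was also lower, at 13.6%, 13.4% and 15.1%. Vehicle replicate 1 was the highest vehicle-treated mouse for 25 of the 29 accessory subunits, and AIMD replicate 3 the highest AIMD mouse for 20 of them. In no left-out fit did an accessory subunit rise.

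The classes can also be set against each other within single mice. The mean log2(FPKM + 0.5) of the 29 accessory subunits exceeded that of the 7 core subunits by 0.54 to 1.11 in AIMD mice (median 0.68) and by 0.95 to 1.61 in vehicle-treated mice (median 1.31). The groups overlapped, since vehicle replicate 2 at 0.95 and vehicle replicate 4 at 1.08 were below the highest AIMD mouse. Vehicle replicate 8, which was lowest in all 3 class means, had 1.21 here and lay within the range of its group. The difference between core subunits and assembly factors was 1.84 to 2.26 in AIMD mice and 1.83 to 2.40 in vehicle-treated mice.

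**Figure D2:**
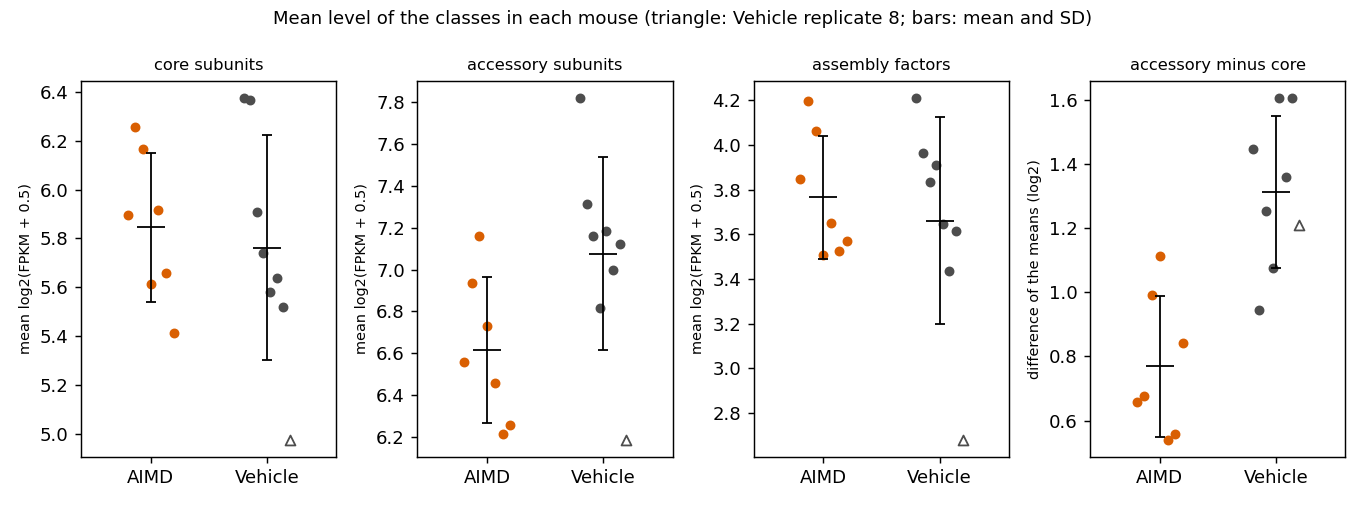
Mean log2(FPKM + 0.5) of the core subunits, the accessory subunits and the assembly factors in each mouse, and the accessory mean minus the core mean, for 7 AIMD and 8 Vehicle mice; bars are the mean and SD, and the triangle is Vehicle replicate 8. The triangle is the lowest point in the first 3 panels and lies among the other Vehicle mice, at 1.21, in the last.

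The N module, at the tip of the matrix arm, is where NADH is oxidised. Its core subunit Ndufv1, which binds NADH and the flavin that accepts its electrons, had 23.4, 43.6 and 64.5 FPKM (lowest, median and highest) in AIMD mice and 15.5, 21.8 and 46.6 FPKM in vehicle-treated mice. Only 2 AIMD mice exceeded all controls, and the highest control was vehicle replicate 2. Its log2 fold change was 0.82 (SE, the standard error, 0.24, adjusted p = 0.0141 in limma), and an exact rank-sum test gave an adjusted p of 0.0739. Ndufs1, the largest core subunit and a carrier of iron-sulfur clusters, had 28.43, 32.4 and 36.3 FPKM in AIMD mice and 15.9, 26.4 and 28.40 FPKM in vehicle-treated mice. It was the only member whose groups did not overlap, though the lowest AIMD mouse lay just above the highest control, and 8.56% of all genes had groups that did not overlap. Its log2 fold change was 0.37 (SE 0.12, adjusted p = 0.0250 in limma), and without AIMD replicate 1 its adjusted p was 0.0547. The third core subunit of the module, Ndufv2, which holds an iron-sulfur cluster beside the flavin, had 205, 261 and 371 FPKM in AIMD mice and 163, 402 and 601 FPKM in vehicle-treated mice. Vehicle replicate 8 gave the 163 and 5 of the other controls were above all AIMD mice. Its log2 fold change of -0.48 did not pass the test (limma adjusted p = 0.101) but was -0.65 without that mouse (limma adjusted p = 0.00539), so that 2 subunits that sit side by side in the module had opposite signs.

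Of the 7 accessory subunits of the N module only Ndufa2, a small protein with a thioredoxin-like fold, passed the test. It had 137, 206 and 329 FPKM in AIMD mice and 215, 337 and 658 FPKM in vehicle-treated mice, where 4 AIMD mice lay below all controls. This was a log2 fold change of -0.77 (SE 0.23, adjusted p = 0.0165 in limma). The remaining members were Ndufa7 (-0.65), Ndufs4 (-0.46), Ndufa12 (-0.44), Ndufs6 (-0.37), Ndufa6 (-0.21) and Ndufv3 (0.10), with adjusted p from 0.0654 to 0.784. Ndufs4 and Ndufs6 are known from inherited complex I deficiency. Without vehicle replicate 8, Ndufa7, Ndufs4 and Ndufa12 passed as well, with adjusted p of 0.00873, 0.00874 and 0.0189.

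The Q module links the N module to the membrane and holds the site where ubiquinone is reduced. None of its core subunits passed the test. Ndufs7, the carrier of the last iron-sulfur cluster before ubiquinone, had 12.8, 17.6 and 28.6 FPKM in AIMD mice and 16.01, 25.5 and 60.8 FPKM in vehicle-treated mice. The ranges of the groups overlapped widely, with vehicle replicates 1 and 2 as the highest mice. Ndufs3, a scaffold of the module, had 25.9, 34.1 and 44.5 FPKM in AIMD mice and 17.7, 32.0 and 51.6 FPKM in vehicle-treated mice. Ndufs8, which carries a pair of iron-sulfur clusters, had 25.9, 47.7 and 81.4 FPKM in AIMD mice and 20.4, 36.3 and 83.0 FPKM in vehicle-treated mice. The log2 fold changes were -0.54 for Ndufs7, 0.11 for Ndufs3 and 0.17 for Ndufs8 (limma adjusted p from 0.150 to 0.689). The sign of Ndufs3 turned to -0.01 without vehicle replicate 8.

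The accessory subunit Ndufa5 of the Q module fell. It had 195, 273 and 464 FPKM in AIMD mice and 291, 506 and 802 FPKM in vehicle-treated mice, with 4 AIMD mice below all controls and 6 controls above all AIMD mice. Its log2 fold change was -0.85 (SE 0.23, adjusted p = 0.00838 in limma). Ndufa9, the other accessory subunit of this module, which sits at the joint of the arms, had a log2 fold change of 0.19 (limma adjusted p = 0.454), the highest of any accessory subunit.

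The membrane arm, where protons are pumped, holds most of the accessory subunits. In its proximal part 3 of 9 fell (33.3%) and in its distal part 5 of 11 (45.5%). Of all accessory subunits 34.5% fell, and of all genes 16.7%. The distal part had the lowest median of any module, -0.60, against -0.45 in the proximal part. Whether the modules differ was not tested. Ndufb4 changed most of all members. It had 27.2, 43.3 and 65.5 FPKM in AIMD mice and 25.8, 108 and 169 FPKM in vehicle-treated mice. Vehicle replicate 8 gave the 25.8, below every AIMD mouse, and the 7 other controls were above every AIMD mouse, which without this mouse held for 4.84% of all genes. The log2 fold change was -1.14 (SE 0.33, adjusted p = 0.0132 in limma), and 18.3% of the 50-base windows of this transcript also occur in other genes, chiefly the copy Ndufb4c, so part of its reads may be uncertain. Ndufb7, a subunit on the intermembrane side, had 6.58, 7.46 and 17.6 FPKM in AIMD mice and 11.8, 20.2 and 39.3 FPKM in vehicle-treated mice. Its 4 lowest AIMD mice lay below all controls, and its log2 fold change was -1.03 (SE 0.28, adjusted p = 0.00856 in limma). Ndufb3 had 104, 140 and 233 FPKM in AIMD mice and 149, 275 and 437 FPKM in vehicle-treated mice. Here 6 of 8 controls were above all AIMD mice, and the log2 fold change was -0.87 (SE 0.22, adjusted p = 0.00539 in limma).

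The other called genes of the distal part were Ndufb10 and Ndufb11. Ndufb10, a neighbour of Ndufb7 on the intermembrane side, had 214, 283 and 457 FPKM in AIMD mice and 223, 508 and 865 FPKM in vehicle-treated mice. Ndufb11, which is X-linked and known from inherited deficiency, had 83.8, 129 and 171 FPKM in AIMD mice and 113, 175 and 360 FPKM in vehicle-treated mice. In both, 5 controls were above all AIMD mice and vehicle replicate 1 was the highest. Their log2 fold changes were -0.68 and -0.61 (limma adjusted p = 0.0292 and 0.0367). Neither call held against every left-out mouse: Ndufb10 was lost without AIMD replicate 1, 5, 6 or 7 or vehicle replicate 1, with adjusted p up to 0.0675, and Ndufb11 without AIMD replicate 4, 5, 6 or 7 or vehicle replicate 1, 2 or 3, with adjusted p up to 0.0808. The 6 distal members that were not called were Ndufb6 (-0.60), Ndufb8 (-0.59), the acyl carrier protein Ndufab1 (-0.40), Ndufb2 (-0.06), Ndufb9 (-0.04) and Ndufb5 (0.12). Of these, Ndufb6, Ndufb8 and Ndufab1 passed without vehicle replicate 8, with adjusted p of 0.00478, 0.00549 and 0.00605.

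In the proximal part, Ndufa3, a small membrane subunit, had 151, 219 and 351 FPKM in AIMD mice and 242, 385 and 812 FPKM in vehicle-treated mice. Its 5 lowest AIMD mice were below all controls, and its log2 fold change was -0.88 (SE 0.24, adjusted p = 0.00880 in limma). Ndufc2, which helps to join the parts of the membrane arm, had 180, 250 and 387 FPKM in AIMD mice and 204, 422 and 551 FPKM in vehicle-treated mice. Ndufa13, also known as Grim19 for a role in cell death, had 48.7, 65.0 and 131 FPKM in AIMD mice and 77.4, 117 and 247 FPKM in vehicle-treated mice. Most controls of Ndufc2, 6 of 8, were above all AIMD mice, whereas for Ndufa13 only 3 were. The log2 fold changes were -0.62 for Ndufc2 and -0.72 for Ndufa13 (limma adjusted p = 0.0274 and 0.0435). Ndufc2 lost its call without AIMD replicate 5 or 6 or vehicle replicate 1 or 6, with adjusted p up to 0.0675, and Ndufa13 lost it without any of 10 mice (AIMD replicates 1, 4, 5, 6 and 7 and vehicle replicates 1, 2, 3, 5 and 7), with adjusted p up to 0.0936. The members not called here were Ndufa11 (-0.60), Ndufc1 (-0.45), Ndufa1 (-0.41), Ndufa8 (-0.31), Ndufs5 (-0.11) and Ndufa10 (0.09). Ndufc1 and Ndufa1 passed without vehicle replicate 8 (limma adjusted p = 0.00920 and 0.0389). Ndufa4, counted apart, had a log2 fold change of -0.26 (limma adjusted p = 0.210).

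In GENCODE annotation of GRCm38 the called genes whose values are strongest in each class lie apart in the genome, with Ndufb4 at chr16:37647170-37654453 (minus strand), Ndufb7 at chr8:83566671-83571626 (plus strand), Ndufa3 at chr7:3617373-3620327 (plus strand), Ndufb3 at chr1:58586384-58595964 (plus strand), Ndufa5 at chr6:24518666-24528013 (minus strand), Ndufv1 at chr19:4007384-4012806 (minus strand), Ndufs1 at chr1:63143596-63176833 (minus strand), Ndufaf4 at chr4:24898083-24905001 (plus strand) and Ndufaf5 at chr2:140170649-140203689 (plus strand). Exons of other genes on the opposite strand cover 30.0% of the exon bases of Ndufa13 (Tssk6), 12.9% of those of Ndufb11 (Rbm10), 11.5% of those of Ndufa2 (Tmco6) and, among genes not called, 39.0% of Ndufb6 (Smim27) and 65.6% of Ndufaf2 (B230220B15Rik). How the counting used strand is not given in the sources used here, so that reads of these partners cannot be told apart. Besides Ndufb4, over 10% of the 50-base windows of Ndufs5 (21.7%), Ndufa12 (17.7%), Ndufs3 (16.1%) and Ndufb9 (15.6%) occur in other genes, and none of these was called.

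**Figure D3:**
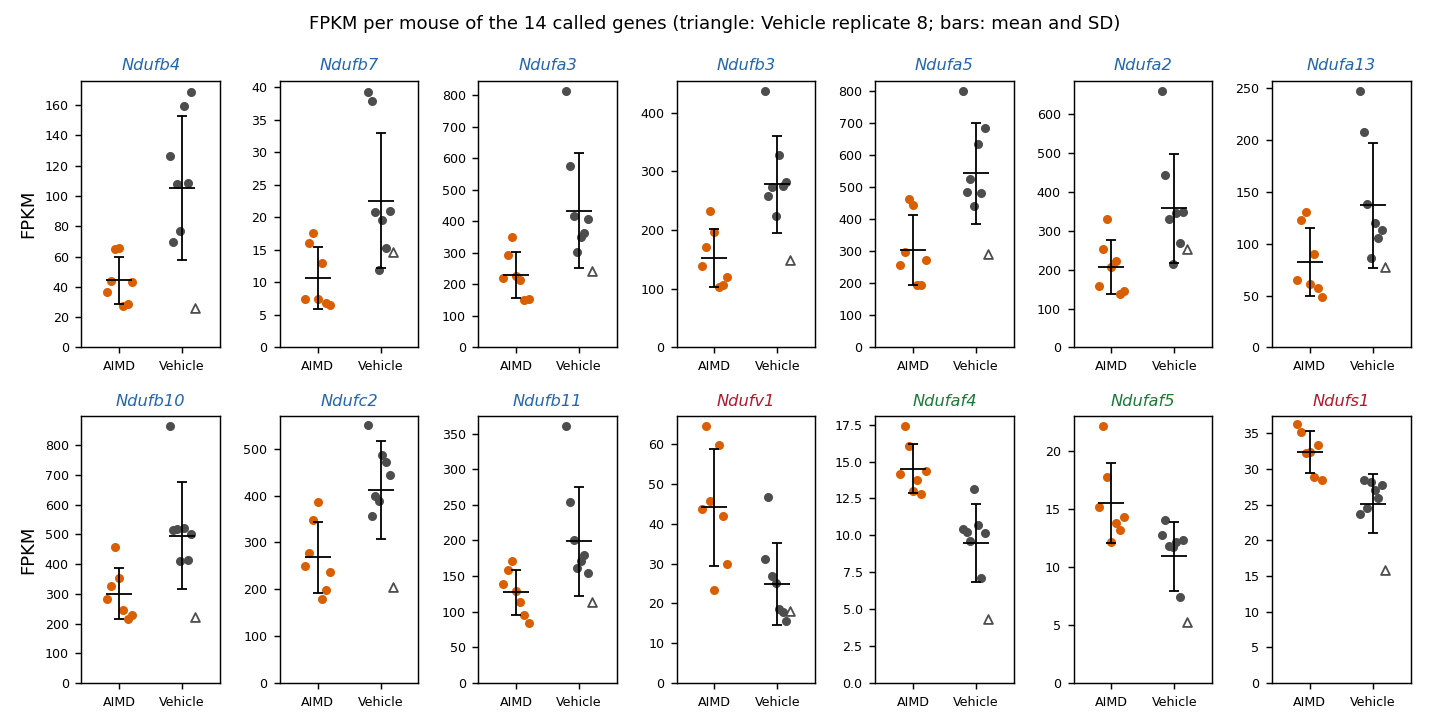
FPKM of the 14 called genes in each mouse (orange AIMD, n = 7; grey Vehicle, n = 8), each panel with its own axis from 0; bars are the mean and SD, and gene names are blue for accessory, red for core and green for assembly genes. In the panels of Ndufb4 and Ndufc2 the triangle, Vehicle replicate 8, lies far under the other Vehicle mice, and in the panel of Ndufs1 it is the lowest of all 15 mice at 15.9.

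The ratio of 2 genes within a mouse does not depend on the scaling between mice. Ndufa3 over Ndufs1, which like the next pair was chosen after the values were seen, was 4.52 to 10.9 in AIMD mice (median 6.96) and 10.8 to 34.4 in vehicle-treated mice (median 14.98). Only AIMD replicate 3, at 10.9, exceeded a control, vehicle replicate 4 at 10.8. Ndufb4 over Ndufv1 was 0.454 to 2.80 in AIMD mice and 1.43 to 10.9 in vehicle-treated mice, with vehicle replicates 2 and 8 inside the AIMD range. Both pairs join a called fall to a called rise in the same mice, so a difference between the groups follows from the choice of genes, and the ratios are a description only.

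Among the assembly factors, Ndufaf4, which with Ndufaf3 acts in building the Q module, had 12.8, 14.2 and 17.4 FPKM in AIMD mice and 4.33, 10.2 and 13.1 FPKM in vehicle-treated mice. All controls but vehicle replicate 4 were below all AIMD mice, and its log2 fold change was 0.64 (SE 0.17, adjusted p = 0.00922 in limma). Ndufaf5, the enzyme that hydroxylates an arginine of Ndufs7, had 12.1, 14.3 and 22.1 FPKM in AIMD mice and 5.24, 11.9 and 14.1 FPKM in vehicle-treated mice. Only 4 AIMD mice were above all controls, and its log2 fold change was 0.52 (SE 0.19, adjusted p = 0.0412 in limma). This call was lost without AIMD replicate 1, 2, 3, 5 or 7 or vehicle replicate 6, with adjusted p up to 0.0899. The rest were Ndufaf7, a protein arginine methyltransferase (0.27), Ndufaf1 of the early membrane-arm assembly complex (0.12), Ndufaf6 (-0.24), Ndufaf2, which acts late beside the N module (-0.27), and Ndufaf3 (-0.31), with adjusted p from 0.197 to 0.660. Ndufaf6 fell, with -0.48, without vehicle replicate 8 (limma adjusted p = 0.0185). Ndufaf3 and Ndufaf4, which are known to bind each other, had values of opposite sign. That of Ndufaf3 did not pass (SE 0.28, limma adjusted p = 0.394), so its sign is uncertain. A further member of the family, Ndufaf8, stands in the table under an older symbol, 1810043H04Rik, and so was not a member by the rule. It had 7.48, 10.2 and 13.7 FPKM in AIMD mice and 10.6, 14.8 and 23.3 FPKM in vehicle-treated mice, and was lower in AIMD mice by a log2 fold change of -0.57 (limma adjusted p = 0.0127), which was noticed after values had been seen. It is known as a partner that stabilises Ndufaf5, the gene that rose.

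The promoters of Ndufaf4 and Ndufaf5 are shown because they are the called members that hold a motif of nuclear respiratory factor 1, and those of Ndufv1 and Ndufb4 because these genes had the largest rise and fall and hold none of the motifs searched. Each is RefSeq sequence of GRCm38.p6, read 5′ to 3′ on the strand of the gene, from 250 bases before to 50 bases after its start, with the matches to this motif in capitals. Ndufaf4 is at chr4:24897833-24898132 (plus strand), Ndufaf5 at chr2:140170396-140170695 (plus strand), Ndufv1 at chr19:4012706-4013005 (minus strand) and Ndufb4 at chr16:37654319-37654618 (minus strand).
Ndufaf4: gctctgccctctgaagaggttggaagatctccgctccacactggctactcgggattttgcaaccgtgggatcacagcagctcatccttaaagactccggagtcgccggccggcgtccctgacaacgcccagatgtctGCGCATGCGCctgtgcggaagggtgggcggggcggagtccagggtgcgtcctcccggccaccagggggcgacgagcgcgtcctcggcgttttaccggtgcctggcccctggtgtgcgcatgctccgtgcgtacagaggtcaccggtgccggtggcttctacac
Ndufaf5: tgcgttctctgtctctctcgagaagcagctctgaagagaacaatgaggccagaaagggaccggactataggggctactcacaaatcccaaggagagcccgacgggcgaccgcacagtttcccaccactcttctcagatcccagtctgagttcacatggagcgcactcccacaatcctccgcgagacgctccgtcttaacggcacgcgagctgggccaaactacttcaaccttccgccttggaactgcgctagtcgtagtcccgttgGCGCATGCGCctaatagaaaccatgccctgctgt
Ndufv1: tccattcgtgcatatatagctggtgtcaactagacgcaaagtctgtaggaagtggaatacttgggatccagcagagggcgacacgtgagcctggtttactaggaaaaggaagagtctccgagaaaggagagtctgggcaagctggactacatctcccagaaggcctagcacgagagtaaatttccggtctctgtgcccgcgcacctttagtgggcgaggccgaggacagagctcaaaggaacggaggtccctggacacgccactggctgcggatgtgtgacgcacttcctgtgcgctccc
Ndufb4: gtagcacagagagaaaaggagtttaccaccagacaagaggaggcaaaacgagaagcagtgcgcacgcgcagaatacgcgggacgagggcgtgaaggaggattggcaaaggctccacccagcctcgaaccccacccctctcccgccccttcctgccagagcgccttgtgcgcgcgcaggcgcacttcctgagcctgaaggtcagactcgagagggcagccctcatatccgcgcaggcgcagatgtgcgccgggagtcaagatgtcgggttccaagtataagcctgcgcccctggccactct

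In Ndufaf4 the motif begins 113 bases before the start and in Ndufaf5 16 bases after it, and in both it is matched on either strand, the 2 matches overlapping in all but 1 base. Promoters were at hand for 39 of the 44 members, and Ndufs1, Ndufb9, Ndufaf6 and Ndufa2 were among those without. Searched on both strands, GCGCATGCG, a form of the motif of nuclear respiratory factor 1, was found in 4 of 39 members (Ndufa8, Ndufa11, Ndufaf4 and Ndufaf5) and in 4.22% of the promoters of 8809 tested genes. AAGATGGCG, a form of the YY1 motif, was found in 5 of 39 members (Ndufa9, Ndufc1, Ndufs4, Ndufs6 and Ndufs7), none of them called, and in 3.73% of all. CCGGAAGT, the core of the GABPA motif, was found in 1 member (Ndufs3) and in 9.29% of all, and TCAAGGTCA, the motif of estrogen-related receptors, in no member and in 0.307% of all. A match is a description of letters and does not show that a factor binds there.

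Of 12 genes for regulators of mitochondrial gene expression, all in the table, 2 rose (16.7%) and none fell. Over all genes 19.4% were higher and 16.7% lower, so the share of rises was no larger than that. The 2 that rose encode subunits of the same factor, known to act on respiratory chain genes. Gabpa had 3.94, 5.23 and 6.10 FPKM in AIMD mice and 2.49, 3.74 and 5.59 FPKM in vehicle-treated mice, with a log2 fold change of 0.41 (limma adjusted p = 0.0298). Gabpb1 had 2.66, 2.88 and 3.68 FPKM and 2.12, 2.40 and 2.86 FPKM, with a log2 fold change of 0.26 (limma adjusted p = 0.0467). Neither call held when AIMD replicate 1, 5, 6 or 7 or vehicle replicate 1 was left out, and Gabpb1 was lost in 11 of the 15 left-out fits, with adjusted p up to 0.108. Nrf1, whose motif is shown above, had a log2 fold change of 0.19 (limma adjusted p = 0.208), Ppargc1a 0.34 (limma adjusted p = 0.114) and Yy1 -0.35 (limma adjusted p = 0.228).

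Complex I also has 7 subunits made from the mitochondrial chromosome, which form the proton-pumping core of the membrane arm. All 5 that could be tested fell, against 16.7% of all genes, mt-Nd5 the most. mt-Nd5 had 414, 632 and 1223 FPKM in AIMD mice and 1236, 2539.6 and 3937 FPKM in vehicle-treated mice, with the groups just apart, and a log2 fold change of -1.80 (limma adjusted p = 0.000115). The others, mt-Nd6, mt-Nd4, mt-Nd1 and mt-Nd2, had log2 fold changes from -1.57 to -1.22 (limma adjusted p from 0.00266 to 0.00742). With quantile normalization mt-Nd1 was at -0.44 (limma adjusted p = 0.154). mt-Nd3 and mt-Nd4l are listed at 0 in every mouse. Of their 50-base windows 98.0% and 98.8% also occur in other annotated transcripts, as do 62.2% of those of mt-Nd4, so that these values are uncertain.

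Of 11 further assembly factors outside the Nduf names, 10 were in the table and tested. Among these 1 rose (10%) and 1 fell (10%), against 19.4% and 16.7% of all genes. Acad9, which is part of the early assembly complex with Ndufaf1 and also an acyl-CoA dehydrogenase, rose. It had 2.81, 3.68 and 4.43 FPKM in AIMD mice and 1.42, 2.42 and 2.81 FPKM in vehicle-treated mice, with a log2 fold change of 0.54 (limma adjusted p = 0.00268). Dmac1, in the table as Tmem261 and known to act in building the distal membrane arm, fell. It had 40.9, 57.2 and 80.7 FPKM in AIMD mice and 48.1, 107 and 150 FPKM in vehicle-treated mice, with a log2 fold change of -0.79 (limma adjusted p = 0.0126). The other 8 (Ecsit, Tmem126b, Timmdc1, Nubpl, Foxred1, Tmem186, Dmac2 and Tmem70) did not pass, with log2 fold changes from -0.10 to 0.40.

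Other routes by which electrons reach ubiquinone, or NADH is used, gave 2 rises (20%) and 1 fall (10%) among 10 genes. Over all genes the shares were 19.4% higher and 16.7% lower. Etfdh, which passes electrons from fatty acid oxidation to ubiquinone, had 13.2, 14.7 and 21.2 FPKM in AIMD mice and 6.52, 9.73 and 12.2 FPKM in vehicle-treated mice, with a log2 fold change of 0.70 (limma adjusted p = 0.000917). Gpd2, the mitochondrial glycerol-3-phosphate dehydrogenase that brings in electrons from cytosolic NADH, had 10.8, 15.2 and 18.2 FPKM and 5.51, 9.22 and 11.97 FPKM, with a log2 fold change of 0.73 (limma adjusted p = 0.00162). In Etfdh every AIMD mouse was above every control, and in Gpd2 the groups overlapped. Prodh, the proline dehydrogenase, had 1.51, 1.79 and 2.17 FPKM and 1.72, 2.62 and 3.48 FPKM, with a log2 fold change of -0.44 (limma adjusted p = 0.0195). The complex II subunits Sdha (0.14), Sdhb (0.43), Sdhc (0.31) and Sdhd (-0.41) did not pass, nor did Dhodh, Sqor (in the table as Sqrdl) and Nnt, which had values from -0.06 to 0.17.

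Of the 37 tested nuclear genes of complexes III and IV and ATP synthase, 7 rose (18.9%) and 12 fell (32.4%), with a median log2 fold change of -0.32. Of 74 cytosolic ribosomal protein genes, which like the accessory subunits have short and abundant transcripts, 9 rose (12.2%) and 17 fell (23.0%), with a median of -0.24. The accessory subunits (none higher, 34.5% lower, median -0.46) are a class split off from the complex I genes, whereas the other lists were taken whole. All 44 complex I members had 9.1% higher and 22.7% lower, with a median of -0.34. Over all genes tested 19.4% were higher and 16.7% lower. The difference between the lists was not tested.

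Coding length went with the direction of change. Over the 44 members the log2 fold change was higher at greater coding length of the main transcript, with a Spearman rho of 0.65, and the same held over 10725 tested genes with a rho of 0.14. These values describe genes, which are not independent. Within the 29 accessory subunits rho was 0.47, and within the 14 core subunits and assembly factors 0.48. Most accessory subunits are small, and the 14 members with a coding length above 300 and up to 450 bases had a median of -0.61 with 6 lower, where the 591 genes of that length had a median of -0.20 with 23.7% lower. The 8 members above 1000 and up to 3000 bases had a median of 0.23 with 3 higher, where 5712 genes had a median of 0.05 with 21.8% higher. The 3 accessory subunits over 600 bases (Ndufa9, Ndufa10 and Ndufv3) had a median of 0.10. The 3 assembly factors under it had a median of -0.27, from Ndufaf2 (-0.27), Ndufaf3 (-0.31) and Ndufaf4 (0.64). Of these Ndufaf4 was a called rise despite its short coding length. Class and length therefore overlap strongly, and the part of transcript length in the difference between the classes was not tested.

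**Figure D4:**
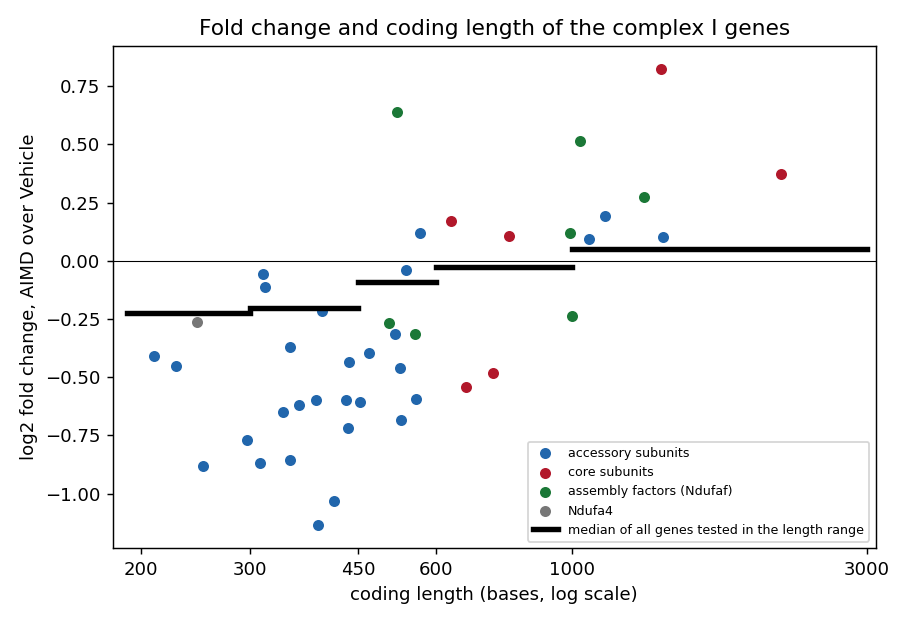
Log2 fold change (AIMD over Vehicle) against coding length in bases on a log axis for 43 of the genes, with accessory subunits blue, core subunits red, assembly factors green and Ndufa4 grey; black bars are the medians of all tested genes in 5 ranges of length. The bars climb from -0.22 to 0.05, and most blue points lie on the left and below them.

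The time of sacrifice is not among the labels, and clock genes split the mice into those with high Arntl (AIMD replicates 1 to 3 and vehicle replicates 1 to 4) and those with low Arntl (AIMD replicates 4 to 7 and vehicle replicates 5 to 8). All 14 called members kept their sign within both sets of mice, as did 99.9% of all 4320 called genes, since the same mice had set the calls. The median of the accessory subunits was -0.43 in the first set and -0.54 in the second. The median of the core subunits was 0.05 and 0.28, and that of the assembly factors was -0.04 and 0.27. With a centred clock-gene covariate in the fit, 14 accessory subunits fell and none rose. Over all genes 2401 fell in that fit, against 1997 in the main fit. The core subunit Ndufs7 also passed there as lower (limma adjusted p = 0.0413), and the 2 core and 2 assembly rises stayed.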

How the data were processed

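Cecal poly-A RNA of 7 AIMD and 8 vehicle-treated mice was sequenced by the authors as stranded libraries. The submitters' notes name STAR, featureCounts, DESeq2 and GRCm38, and the authors deposited FPKM per gene symbol, without pooling mice. Versions, and how counts became FPKM, are not given in the sources used here. The study's own fit used the time of sacrifice, which the labels do not give. Groups and replicate numbers came from the sample titles, and nothing says more than that the libraries are separate mice.

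Of 45808 rows, 4 with a repeated symbol were left out, and 27 symbols had become dates. Each mouse's FPKM were scaled by a median-of-ratios size factor (13594 genes above 0 throughout) and turned into log2(FPKM + 0.5), a scale that understates the change of low genes. The 11983 genes that reached an FPKM of 0.5 in 7 or more mice were fitted in limma 3.58.1 under R 4.3.3 (lmFit, then eBayes with trend), two-sided, with p adjusted by Benjamini–Hochberg and called under 0.05. For all 24279 genes above 0 (100%), FPKM came out as whole numbers of reads within 0.05 reads. The exon length of the annotation gave whole reads for 68.7% of them, so FPKM of different genes compare only as far as these lengths hold. The recovered reads gave the depth and a voom fit, and a member had between 11 and 14309 reads in a mouse (median 1292). Read counts limit the precision of low genes. Python 3.11.15 was used for other steps.

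The members and gene lists were chosen with earlier results of these data known. Every member is named but 1, which is not reported here and is included in the counts. Lowest, median and highest FPKM are given for core subunits and called members, at most 10 per class and direction, and of the other lists up to 5 called genes per direction are named, except for complexes III to V and ribosomal proteins, given as counts. Classes and modules are textbook assignments. No mouse was a copy of another library. The methods were tested on simulated data. Alternatives were other scalings, pseudocounts, filters and tests, a replicate block, a clock-gene covariate and each mouse left out in turn. The main fit did not use replicate numbers as pairs, though they went with the sets of high and low Arntl.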

Additional observations from a re-analysis of the deposited data

Results flagged for a closer look

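In 8 of 88 groups of values (44 genes in each of the treatment groups) 1 mouse lay far from the rest of its group by Dixon's criterion, which chance alone meets in about 1 of 20 groups. All 8 were the lowest value of vehicle-treated mice and belonged to vehicle replicate 8, the least deep library and the one with the highest sums of smooth muscle, neuron and glia markers. Whether depth or these cell types play a part was not tested.

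Among accessory subunits, this mouse had 25.8 FPKM of Ndufb4 where the next lowest control had 69.5, and 204 FPKM of Ndufc2 where the next had 356. It had 141 FPKM of Ndufs4 against 267, 4.98 FPKM of Ndufab1 against 10.4, and 6.42 FPKM of Ndufb2 against 14.7. Among core subunits it had 163 FPKM of Ndufv2 against 332, and 15.9 FPKM of Ndufs1 against 23.6. Of the assembly factor Ndufaf6 it had 2.04 FPKM against 7.05. The groups of Ndufs1 did not overlap, and leaving out this mouse, its lowest control, could not change that. Those of Ndufb4 were free of overlap only without this mouse.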

How the results depend on the processing

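Of the 14 called members, 7 (Ndufb4, Ndufb7, Ndufa3, Ndufb3, Ndufa5, Ndufa2 and Ndufaf4) kept their call and direction under every alternative and left-out mouse tried, and none of the 14 changed direction. Of 182 values of called members under alternatives, 10 lost the call, and of 210 with a mouse left out, 33 did. Accessory subunits lower in AIMD mice, 10 in the report, numbered 6 with no filter and 18 with a replicate block, and 6 to 18 with a mouse left out. They numbered 7 with the exact rank-sum test, where Ndufa13, Ndufb10 and Ndufb11 lost their calls, and 14 with the centred clock-gene covariate. Assembly factors higher were 1 with no filter and 1 to 2 with a mouse left out, and assembly factors lower were 2 with the block and 0 to 1 with a mouse left out. Core subunits higher were 1 with the exact rank-sum test and 1 with the block, and 1 to 2 with a mouse left out, and core subunits lower were 2 with the block, 1 with the centred clock-gene covariate and 0 to 1 with a mouse left out. Over all genes, an FPKM filter of 5 left 1254 higher and 1088 lower, by its construction fewer genes tested, and leaving out a mouse gave 1904 to 2411 higher and 1590 to 2205 lower. The block fit left out vehicle replicate 8, and its accessory median of -0.62 and its 18 falls equalled those without that mouse. With no filter the accessory median stayed at -0.46, and the adjustment ran over more genes. The cause of the other moves was not tested.

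Under the alternatives and with a mouse left out, reversed signs were limited to 5 genes near 0 that were not called. Within the mice of high Arntl alone, other members that were not called also turned, such as Ndufa10 (-0.09) and Ndufaf1 (-0.04). Ndufb9 was at 0.17 with quantile normalization, 0.0061 with the clock-gene covariate not centred, and -0.18 (without vehicle replicate 8) to 0.061 (without vehicle replicate 1) with a mouse left out. Ndufv3 was at -0.016 and Ndufs3 at -0.0079 with the block and without vehicle replicate 8, and at up to 0.26 and 0.21 without vehicle replicate 1. With a mouse left out Ndufb2 ran from -0.25 to 0.019 and Ndufs5 from -0.23 to 0.031. The block leaves out vehicle replicate 8. Correlations of same-numbered mice ran from -0.350 to 0.432, and only 1 of 7 AIMD mice was most like its own number. The main fit did not treat same-numbered mice as pairs. In both groups, however, the lower numbers had high Arntl and the higher numbers low Arntl. Depth limits the least abundant members, down to 11 reads of Ndufaf6.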
